A study of Mus musculus with 2 samples.

Results

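Butyrophilin-like genes of the intestinal epithelium were followed in mouse intestinal organoids with and without dextran sulfate sodium (DSS). The members were fixed by name as Btnl1, Btnl2, Btnl4 and Btnl6. These members and the companion lists used below were chosen with earlier results of these data known. All 4 members were found among the 19294 genes of the count table, so none was lost to a filter. The study derived organoids from the jejunal crypts of Lgr5-EGFP-IRES-creERT2 mice, which carry a fluorescent reporter in the Lgr5 stem cell gene, and kept them in medium with EGF, Noggin and R-spondin. mRNA was sequenced at day 4 from 1 untreated culture, the control, and from 1 culture that received DSS, an injurious sulfated polymer of glucose. The genotype, the medium and the time point are shared by both cultures, and the DSS concentration of the sequenced culture is not given in the sources used here. The cultures are epithelial, without the lymphocytes, stroma or vessels of the gut wall.

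Butyrophilin-like proteins are membrane proteins of the immunoglobulin superfamily, related to butyrophilins and to the B7 ligands of T cells. In the mouse small intestine they are made by enterocytes, mostly on the villus. Btnl1 and Btnl6 form a pair at the enterocyte surface that selects and maintains the Vγ7 subset of γδ intraepithelial lymphocytes, while Btnl2 is known for dampening T cell activation. Btnl4 is a close relative of Btnl6. The comparison asks how much of this lymphocyte-directed equipment was expressed in organoid epithelium with and without DSS.

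The members lie together on chromosome 17, inside the major histocompatibility complex. In the GENCODE vM21 annotation of build GRCm38, which may not be the build used for counting, Btnl2 (NCBI gene 547431) spans chr17:34354822-34369495 and Btnl1 (100038862) spans chr17:34377132-34386028, both on the plus strand. Btnl4 (632126), at chr17:34466562-34477318, and Btnl6 (624681), at chr17:34507804-34517352, are on the minus strand, and between them lies the transcribed pseudogene Btnl5-ps (81497) at chr17:34488070-34497429. No annotated exon of another gene overlaps an exon of these 5 genes.

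The promoter windows of Btnl1 and Btnl2 run from 250 bases before to 50 bases after the annotated start. They are shown because, unlike those of the other members, they were not placed at a start codon. The sequences are from RefSeq, build GRCm38.p6, plus strand, for chr17:34376882-34377181 and chr17:34354572-34354871. Capitals mark a match to the HNF4 motif CAAAGTNCA. HNF4 factors are nuclear receptors of enterocyte genes.
Btnl1: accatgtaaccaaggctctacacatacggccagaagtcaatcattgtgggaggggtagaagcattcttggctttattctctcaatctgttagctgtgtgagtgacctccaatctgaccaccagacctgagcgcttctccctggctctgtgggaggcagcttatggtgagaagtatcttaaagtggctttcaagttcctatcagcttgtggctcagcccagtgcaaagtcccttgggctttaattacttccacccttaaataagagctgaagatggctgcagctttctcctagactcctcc
Btnl2: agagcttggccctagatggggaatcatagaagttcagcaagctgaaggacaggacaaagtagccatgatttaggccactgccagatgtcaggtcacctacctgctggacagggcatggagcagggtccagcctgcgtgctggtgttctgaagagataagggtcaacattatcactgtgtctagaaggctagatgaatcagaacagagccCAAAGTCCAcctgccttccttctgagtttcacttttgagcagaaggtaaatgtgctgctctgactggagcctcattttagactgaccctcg

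Among the windows of the 4 members, the HNF4 motif was found once, in Btnl2, from base -41 to base -33 of the annotated start. Across all 32851 windows of the same length in the table, 1.41% held it on either strand. The letters CCATAAA and CAATAAA of the CDX factors, present in 2.75% and 4.60% of all windows, and GAAANNGAA of interferon response elements, present in 8.56%, were in none of the members' windows. The windows of Btnl4 and Btnl6 are not printed, because each was placed at the start codon of a coding transcript. For Btnl4, the GENCODE gene begins 1381 bases further upstream. These windows were 91.1% identical to each other.

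The coding sequences of Btnl4 and Btnl6 were 83.2% identical, and their longest common stretch had 69 bases. It is shown because a read that falls wholly inside it cannot be assigned to either gene by its sequence. The first 50 and the last 50 bases of the stretch also occur in the pseudogene Btnl7-ps. The stretch lies in exon 9 of 9 in both Btnl4 and Btnl6, at chr17:34469371-34469439 in Btnl4 and chr17:34508132-34508200 in Btnl6. It reads 5′ to 3′ on the minus strand as follows.
Btnl4 and Btnl6: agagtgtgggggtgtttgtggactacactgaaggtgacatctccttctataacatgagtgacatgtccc

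The transcripts searched held only coding sequence for Btnl4, with 1761 bases, and for Btnl6, with 1620, so untranslated ends were not searched. Those of Btnl1 and Btnl2, with 2113 and 2566 bases, held untranslated parts as well. Of the 1712 words of 50 bases in the Btnl4 transcript, 172 also occurred in a transcript of another gene, and for Btnl6 the share was 7.13%. The genes concerned were Btnl4, Btnl6, Btnl5-ps and the pseudogene Btnl7-ps. At 100 bases the shares were 1.44% and 0.0657%. No 50-base word of Btnl1 or Btnl2 occurred in another gene. The counts of Btnl4 and Btnl6 are therefore less certain than those of Btnl1 and Btnl2, as the handling of shared reads is not given in the sources used here.

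Total depth was 65493032 counts for the control and 59746968 for DSS. Counts were divided by the library size after correction with TMM factors (CPM), and the log2 ratio compares DSS with control. Each condition is 1 library, so no test was made, the 95% intervals cover counting error only, and no difference has a replicate check. A minimum of 10 counts in either library was passed by 17235 genes, the genes tested below. Among these, 19.3% reached a log2 ratio of 1 and 7.87% reached 2, while 20.2% were at or under -1 and 6.54% at or under -2. The log2 ratio was above 0 for 8272 of them and below 0 for 8963. Over these genes the TMM-scaled median was -0.06, and scaling by total counts gave -0.31. With total counts, a ratio of 2 was reached by 1087 genes and -2 by 1521, against 1356 and 1127 with TMM factors.

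All 4 members, chosen with earlier results of these data known, had more counts in the DSS library. Their median log2 ratio was 1.96, against -0.06 over all genes tested. A log2 ratio of 1 or more was found for 3 of the 4, beside 19.3% of all genes tested, and 1 of the 4 was at 2 or more, beside 7.87%. Under each of the other scalings 3 of the 4 were again at 1 or more. Of all genes tested, 19.4% were at 1 or more with DESeq2 size factors and 15.4% with total counts. The share was 21.2% with upper quartile factors and 10.1% with scaling on epithelial genes. The number of members at 2 or more was 3 with upper quartile factors, beside 8.54% of all genes tested. It was 0 with scaling on epithelial genes, beside 4.08%. In bulk RNA, a larger number of villus-type cells and more RNA per cell cannot be told apart.

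**Figure D1:**
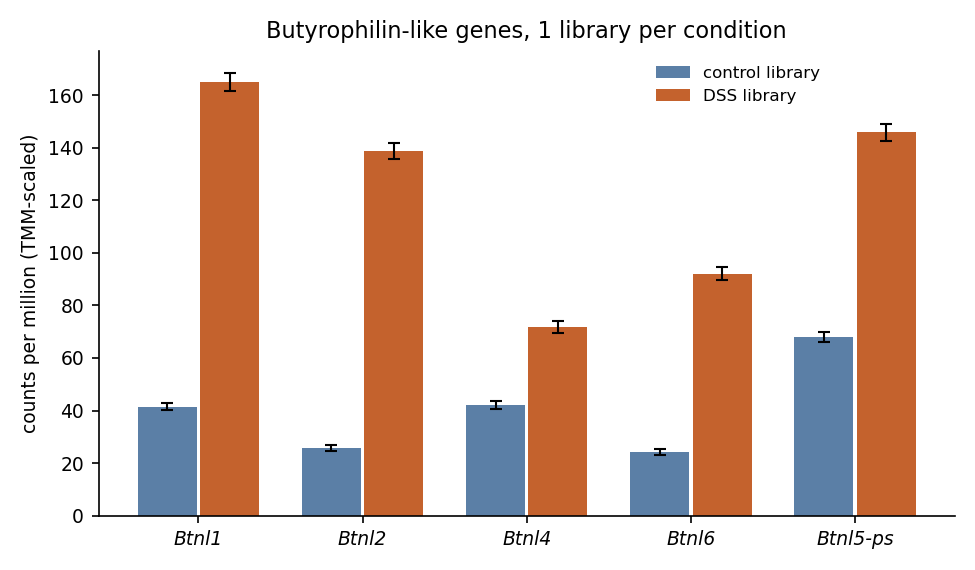
TMM-scaled levels (CPM) of the 4 members and the pseudogene Btnl5-ps in the control and DSS libraries. Bars are single libraries and error bars are exact Poisson 95% intervals of the counts, without variation between cultures. Btnl4 had the highest control bar of the 4 members, at 42.1, and the lowest DSS bar, at 71.6.

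Btnl1, the partner of Btnl6 at the enterocyte surface, had 2969 control counts and 9020 DSS counts. This corresponds to 41.5 CPM with a counting interval from 40.0 to 43.0 in the control, and to 165 CPM with an interval from 162 to 168 under DSS. The level was 3.98-fold higher under DSS, and the log2 ratio was 1.99 (interval 1.93 to 2.05). In the DSS library Btnl1 was the most abundant of the members by counts, at the percentile 93.3 of all genes tested.

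Btnl6, its partner, had 1742 control counts and 5033 DSS counts, or 24.3 and 92.1 CPM. The level was 3.78-fold higher under DSS, and the log2 ratio was 1.92. The ratio of Btnl1 to Btnl6 counts was 1.70 in the control library and 1.79 in the DSS library. This ratio within a library does not depend on how the libraries are scaled. The difference of both log2 ratios was 0.07, with an exact conditional interval from -0.03 to 0.17, so that a change of the proportion of this pair was not detectable beyond counting error. It was the only one of the 6 pairs of members whose interval held 0.

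Btnl2, the member linked to restraint of T cells, was counted 1837 times in the control and 7578 times under DSS, which is 25.7 and 139 CPM. It had the largest difference of the 4, 5.40-fold, and its log2 ratio was 2.43 (interval 2.36 to 2.51). Its ratio exceeded that of its neighbour Btnl1 by 0.44 on the log2 scale, as Btnl1 minus Btnl2 was -0.44 with an interval from -0.54 to -0.35. Against Btnl6, the difference was 0.51, from 0.41 to 0.62. Among all genes tested, Btnl2 was at the percentile 62.3 of the control levels and 91.7 of the DSS levels.

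Btnl4 differed least. It had 3011 control counts and 3915 DSS counts, or 42.1 and 71.6 CPM, a 1.70-fold difference, and its log2 ratio was 0.77 (interval 0.70 to 0.84). This ratio was at the percentile 75.9 of all genes tested, whereas those of Btnl1, Btnl2 and Btnl6 were between 91.5 and 94.7. In the control library Btnl4 and Btnl1 had nearly equal counts, with a ratio of Btnl1 to Btnl4 of 0.986, and in the DSS library the ratio was 2.30. The difference of their log2 ratios was 1.22, from 1.13 to 1.32, and Btnl4 minus Btnl6 was -1.15, from -1.26 to -1.05. When the libraries were scaled on 12 general epithelial genes instead, the log2 ratio of Btnl4 was 0.03 with an interval from -0.04 to 0.10, while those of the other members were 1.25, 1.69 and 1.18 for Btnl1, Btnl2 and Btnl6. The size of the Btnl4 difference thus depends on the scaling, and its distance to the other members does not.

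**Figure D2:**
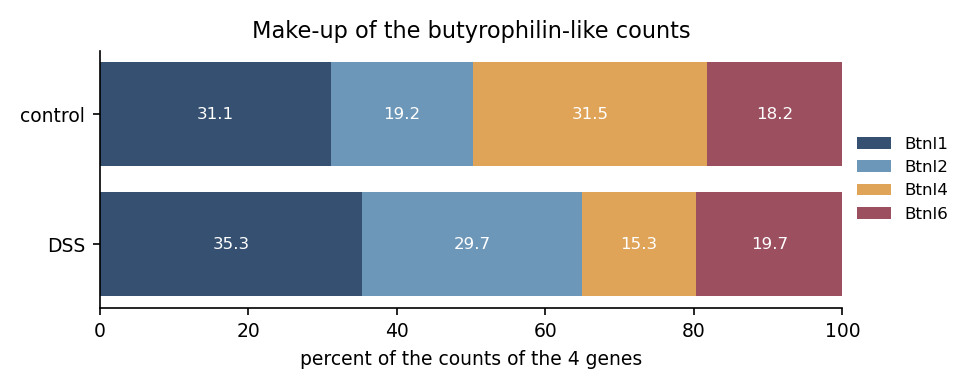
Share of each member in the summed counts of the 4 genes, in percent, for the control library (9559 counts) and the DSS library (25546 counts). The Btnl4 segment takes 31.5% of the control bar and 15.3% of the DSS bar, and the Btnl2 segment 19.2% and 29.7%.

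Summed over the 4 members, 9559 control counts stood against 25546 DSS counts, and the log2 ratio was 1.81 (interval 1.77 to 1.84). Without Btnl4 the log2 ratio of the sum was 2.11. The share of Btnl4 in this sum was 31.5% in the control, with an exact binomial interval from 30.6 to 32.4, and 15.3% under DSS, from 14.9 to 15.8. The share of Btnl2 was 19.2% in the control and 29.7% under DSS, the latter from 29.1 to 30.2. Btnl1 made up 31.1% and 35.3%, and Btnl6 18.2% and 19.7%. The make-up of the family thus differed between the libraries mainly by a smaller part of Btnl4 and a larger part of Btnl2.

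Levels of different genes were compared per kilobase of annotated exon, as length-scaled levels over the genes with a length (TPM). In the control library Btnl4 was highest, at 50.9 TPM, followed by Btnl6 at 40.1, Btnl1 at 37.1 and Btnl2 at 28.6. Under DSS, Btnl2 at 122, Btnl6 at 119 and Btnl1 at 116 TPM had overlapping counting intervals between neighbours in this order, and Btnl4 was lowest at 68.2. With the longest protein-coding transcript as the length, Btnl4 was again highest in the control at 52.7 TPM and lowest under DSS at 76.4, and Btnl1 was highest under DSS at 147, with Btnl6 at 107 and Btnl2 at 101. The order of the other 3 members depends on the length used. The coding transcripts of Btnl4 and Btnl6 begin at the start codon and end at the stop codon, unlike those of Btnl1 and Btnl2.

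Btnl5-ps, a transcribed pseudogene between Btnl4 and Btnl6, was counted as abundantly as the members. It had 4869 control counts and 7970 DSS counts, or 68.0 and 146 CPM, and its log2 ratio was 1.10 (interval 1.05 to 1.15). Of its own 50-base words, 9.28% occurred in other genes. Reads placed on the wrong one of Btnl4, Btnl5-ps and Btnl6 leave their sum unchanged, while reads exchanged with Btnl7-ps do not. This sum had 9622 and 16918 counts, a log2 ratio of 1.20 from 1.17 to 1.24. It lies below the 1.99 and 2.43 of Btnl1 and Btnl2, which share no such words with other genes.

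Of 22 other listed butyrophilin family names, 4 were in the table and the others, Btnl9 and Btnl10 among them, were not analysed here. Beside Btnl5-ps these were Btn1a1, the butyrophilin of milk fat, Btn2a2, a regulator of T cells, and Ermap, an erythroid membrane protein. Btn1a1 had 362 control and 471 DSS counts, and its log2 ratio was 0.77, from 0.57 to 0.97, close to that of Btnl4 but at 8.61 CPM in the DSS library. Btn2a2 had 301 and 201 counts, and its log2 ratio of -0.19 had an interval from -0.46 to 0.07 that held 0. Ermap had 12 and 8 counts. These 3 genes outside the locus had lower CPM and lower TPM than any member in both libraries.

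**Figure D3:**
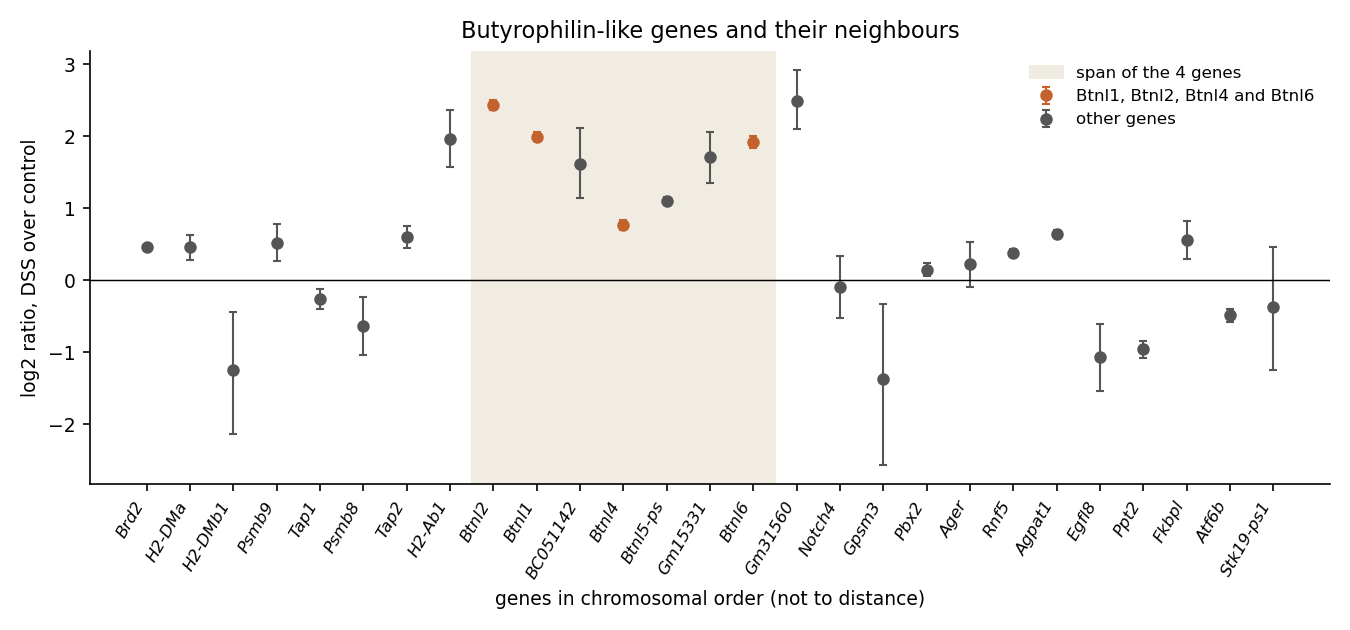
Log2 ratio (DSS over control) of the 27 genes that reached 10 counts in either library and lie within 250 kb of the span of the members, in chromosomal order, not to distance. Points are single log2 ratios with exact 95% counting intervals, and the shaded span runs from Btnl2 to Btnl6. All 7 genes in the span lie between 0.77 and 2.43, and the nearest plotted genes on either side, H2-Ab1 and Gm31560, also lie above 1.

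The genes around the members were taken by position. Within 250 kb of the span from Btnl2 to Btnl6, RefSeq lists 41 genes, of which 28 were in the table and 27 reached 10 counts in either library. In the span itself, all 3 genes that are not members had log2 ratios of 1 or more, beside 19.3% of all genes tested. These were Btnl5-ps, BC051142 with 52 and 122 counts and a log2 ratio of 1.62, and the non-coding RNA Gm15331 with 96 and 239 counts and 1.70. The latter 2 were below 5 CPM in both libraries. With total counts Btnl5-ps was at 0.84, and with scaling on epithelial genes none of these 3 genes reached 1, at 0.36 for Btnl5-ps, 0.88 for BC051142 and 0.97 for Gm15331, beside 10.1% of all genes tested.

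Outside the span, 2 of 20 genes were at 1 or more, beside 19.3% of all genes tested, and 3 were at -1 or less, beside 20.2%. Both of the former were the tested genes nearest to the span. Gm31560, a non-coding RNA beyond Btnl6, had 63 and 271 counts and a log2 ratio of 2.49, from 2.09 to 2.91. On the side of Btnl2, H2-Ab1, the beta chain of an MHC class II molecule, had 73 and 218 counts and a log2 ratio of 1.97, from 1.58 to 2.37. H2-Eb1, which lies between H2-Ab1 and Btnl2, had 8 and 7 counts and is below the count minimum.

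The other neighbours had no such direction in common. The MHC peptide transporters Tap1 and Tap2 were at -0.26 and 0.60, and the immunoproteasome subunits Psmb8 and Psmb9 at -0.63 and 0.52. Notch4, next to Gm31560, was at -0.09 with an interval from -0.52 to 0.34. Brd2, H2-DMa, Pbx2, Ager, Rnf5, Agpat1 and Fkbpl lay between 0.15 and 0.64, and Atf6b, Ppt2, Egfl8, H2-DMb1, Gpsm3 and Stk19-ps1 between -1.38 and -0.38. The median of the 20 genes outside the span was 0.18, and that of the 7 genes inside it was 1.70.

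**Figure D4:**
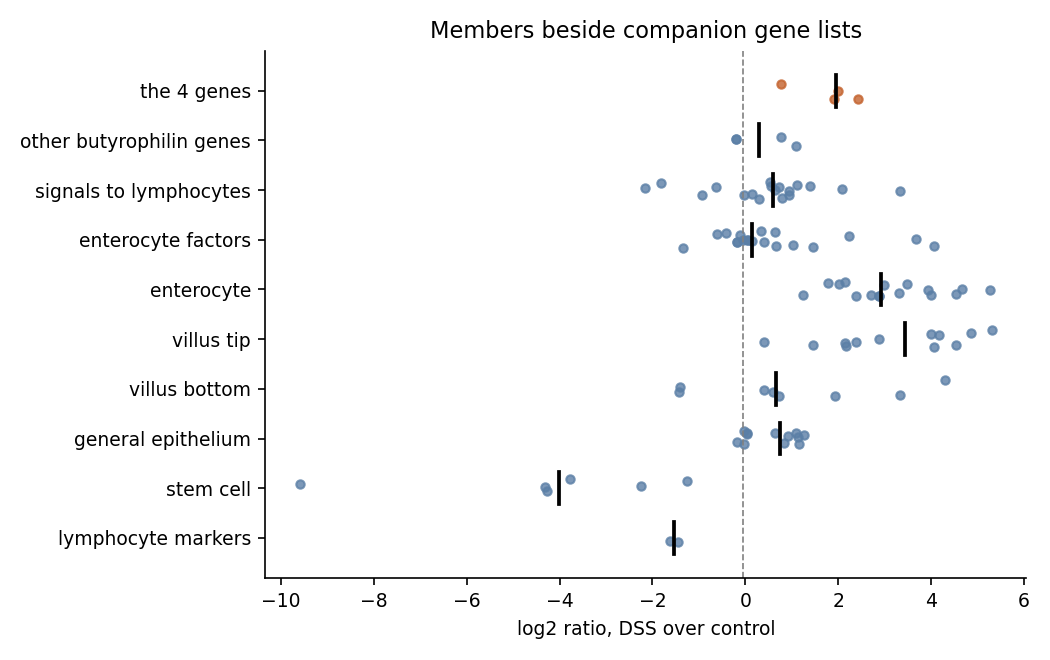
Log2 ratio (DSS over control) of the 4 members and of companion gene lists. Each point is a gene that reached 10 counts in either library, the black bar is the median of the list, the dashed line is the median of all genes tested (-0.06), and points are spread vertically for visibility only. The 4 members, with a median of 1.96, lie below the enterocyte median of 2.93.

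The cell types that could carry these transcripts were read from marker lists, also chosen with earlier results of these data known. All 16 enterocyte genes were higher in the DSS library, with a median log2 ratio of 2.93, and 14 of them were at 2 or more, beside 7.87% of all genes tested. Apoa1, an apolipoprotein of chylomicrons, was highest at 5.27, and Anpep, a brush border peptidase, lowest at 1.24. Of these 16 genes, 11 had a higher log2 ratio than Btnl2, 14 than Btnl1 or Btnl6, and all 16 than Btnl4. Relative to the enterocyte median, Btnl2 lay at -0.49, Btnl1 at -0.94, Btnl6 at -1.01 and Btnl4 at -2.16. The part of enterocyte number in the values of the members was not tested.

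Genes of the villus tip were also higher, with a median of 3.44 over 12 genes, led by Ada, adenosine deaminase, at 5.30 and Enpp3 at 4.87, and with Egfr lowest at 0.41. This list shares Apoa4 with the enterocyte list, and Klf4 and Creb3l3 with the list of enterocyte transcription factors below. Il18 and Ccl25 of the villus bottom and Cdh1 of the general epithelium are also among the signals to lymphocytes below. Elf3 is both a general epithelial gene and an enterocyte transcription factor in these lists, so the lists are not independent. For 8 genes of the villus bottom the median was 0.66, or -0.07 when scaled on epithelial genes. Among them Reg1 was at 4.29, and the antimicrobial lectin gene Reg3b was at -1.41. The 12 general epithelial genes had a median of 0.74, from -0.17 for Elf3 to 1.25 for Vil1, which the paper used as an enterocyte marker. By RT-PCR, the paper reported similar Vil1 levels and a decrease of Lgr5 in DSS-treated organoids. Vil1 here had 36438 control and 66364 DSS counts, a 2.38-fold difference after TMM scaling. The source of this disagreement on Vil1 was not tested. Of these 12 genes, 4 were at 1 or more, or 33.3% beside 19.3% of all genes tested. Scaling on them was thus not shown to be neutral to enterocyte content. The 6 stem cell genes all had negative ratios with a median of -4.02, and Lgr5 was at -3.78. The labels call the cells intestinal stem cells, and both libraries held general epithelial and enterocyte transcripts as well, at a summed 9021 and 3982 CPM in the control.

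The lymphocytes that respond to these proteins could be judged only from few of their markers. Of 14 markers of intraepithelial lymphocytes, 2 were in the table, and their summed counts were 45 (control) and 12 (DSS), or 0.629 and 0.219 CPM. These were Itgae and Cd247. The T cell receptor and CD3 genes were not analysed here, since the table lists only genes with at least 1 count in both libraries. Beside the 467 CPM of the 4 members under DSS, Itgae and Cd247 were near 0. The other 12 markers could not be read, so an absence of lymphocytes was not shown.

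Other epithelial genes for communication with lymphocytes did not share 1 direction. Of 18 such genes, 13 were above 0 and 5 below, beside 8272 above and 8963 below among all 17235 genes tested. A log2 ratio of 1 or more was found for 4 of the 18, or 22.2% beside 19.3% of all genes tested. The median was 0.60, which was -0.14 when scaled on epithelial genes. Il18, a cytokine of the epithelium, had 407 and 3137 counts and was highest at 3.33. It was followed by Cxcl16, a chemokine for T cells, at 2.08 and Icosl, a B7-family ligand of T cells, at 1.38. H2-T3, which encodes the thymus leukemia antigen recognized by CD8αα on intraepithelial lymphocytes, had 1681 and 2788 counts and was at 1.12.

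Stress ligands of the receptor NKG2D had the opposite sign. Ulbp1 had 241 and 41 counts and a log2 ratio of -2.17, from -2.68 to -1.68, and Raet1e had 1363 and 296 counts and a log2 ratio of -1.81. The antigen-presenting gene Cd1d1, with 70 and 28 counts, was at -0.93. Il15, the survival cytokine of intraepithelial lymphocytes, was at 0.93 with 442 and 645 counts, and Tnfrsf14, the receptor HVEM, at -0.63. Il18 was the gene of this list with a higher log2 ratio than Btnl2, and Cxcl16 lay between Btnl1 and Btnl2. The ratio of Btnl4 was also exceeded by those of Icosl and H2-T3. Those of Il7, Il15 and Cd274 were higher too, but their counting intervals overlapped the Btnl4 interval from 0.70 to 0.84. Il7 had only 21 and 31 counts.

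Transcription factors of enterocytes diverged. Hnf4a, with 52316 and 41359 counts, was at 0.05, and its paralog Hnf4g, with 5005 and 18020 counts, at 2.24, from 2.19 to 2.28. The intestinal homeobox genes Cdx1 and Cdx2 were at -0.61 and -1.35. Creb3l3, a regulator of lipid genes, was at 4.06. Over 19 factors, 5 were at 1 or more, or 26.3% beside 19.3% of all genes tested. The median was 0.14, and it was negative with total counts, at -0.12, and with scaling on epithelial genes, at -0.60. The link between any of these factors and the members was not tested.

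**Figure D5:**
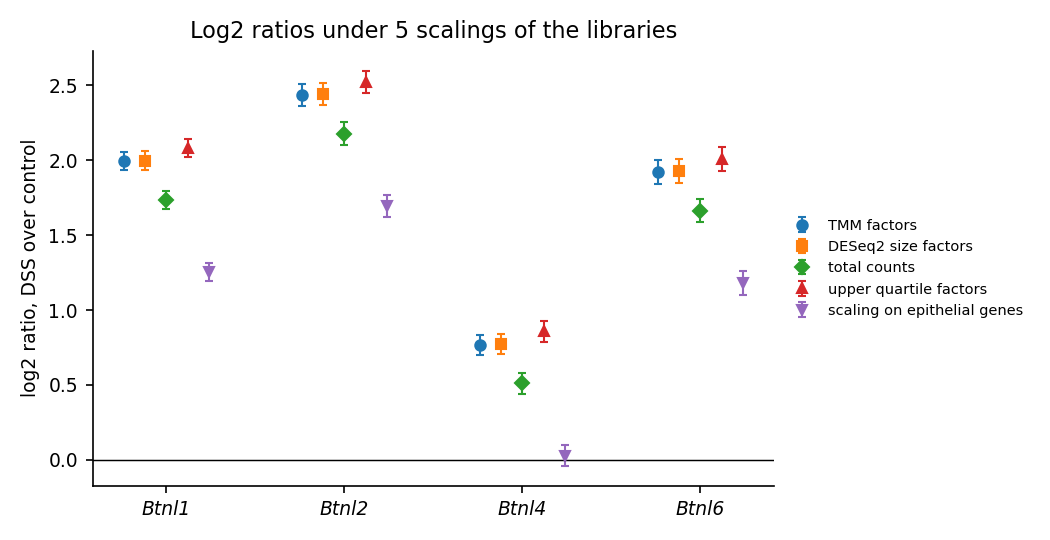
Log2 ratio (DSS over control) of each member under 5 scalings of the 2 libraries, with exact 95% counting intervals. Every point for Btnl1, Btnl2 and Btnl6 lies above 1, and the Btnl4 points run from 0.03 with scaling on epithelial genes to 0.86 with upper quartile factors.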

How the data were processed

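Read counts by gene, not normalized, were deposited by the authors for 1 control and 1 DSS library of stranded poly(A) RNA, listed by NCBI gene identifier. Files named as FPKM for the single samples held these counts for all 19294 genes. The processing notes name HISAT2 and StringTie, and build, strand setting and treatment of multiply aligned reads are not given in the sources used here. Scaling used TMM factors (1.09 control, 0.915 DSS) in edgeR 4.0.16 under R 4.3.3. Log2 ratios carry Clopper-Pearson, levels Poisson and member pairs conditional intervals, all exact at 95%. Only the Clopper-Pearson intervals were tested on simulated data. TPM used GENCODE vM21 exon lengths for 17256 genes. Identity came from edit-distance alignment with edlib 1.3.9.post1. Python 3.11.15, scipy 1.17.1 and DESeq2 1.42.0 were also used. Members and the 9 lists were chosen with earlier results of these data known. Named were the members, family genes, neighbours with at least 10 counts and up to 3 highest and 3 lowest genes per list with at least 50 counts. Il7, Il15, Cd274, H2-T3, Tnfrsf14 and Hnf4a fall outside this rule and were named after their values were seen, and some genes within it are not reported here. Alternatives were DESeq2 size factors, total counts, upper quartile factors, epithelial genes, a prior count of 2, thinning, count filters, list means, transcript length and leaving out members. A comparison of protein sequences was not run.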

Additional observations from a re-analysis of the deposited data

How the results depend on the processing

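No paired analysis was possible because each condition is 1 library. No replicate could be left out either. Across 144 recomputed values, 90 stayed within their range, 49 moved and 5 changed sign. The range was the counting interval of the value, or 1.5 times for a count of genes. For a list median it ran from the median of its genes' lower bounds to the median of their upper bounds. The latter is not a counting interval of the median. With DESeq2 size factors, thinning, a prior count of 2 and the count filters, none of the values left its range. Total counts lowered every log2 ratio by 0.26 and scaling on epithelial genes by 0.74, and upper quartile factors raised it by 0.09. With total counts, upper quartile factors and epithelial genes in turn, the log2 ratio was 1.74, 2.08 and 1.25 for Btnl1, 2.18, 2.52 and 1.69 for Btnl2, 0.51, 0.86 and 0.029 for Btnl4, 1.66, 2.01 and 1.18 for Btnl6, and 1.55, 1.90 and 1.07 for their sum. The sum was at 1.71 without Btnl1, 1.61 without Btnl2 and 2.11 without Btnl4.

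Scaling on epithelial genes gave 704 genes that reached 2 and 2651 that reached -2. The median of the butyrophilin family list was 0.031 with total counts and turned to -0.45 with epithelial genes, and that of the signals to lymphocytes was 0.34 and turned to -0.14, with a mean of 0.44. The enterocyte factors turned to -0.12 and -0.60, with a mean of 0.62. The villus bottom list was at 0.41 with total counts, 0.75 with upper quartile factors and turned to -0.074 with epithelial genes, with a mean of 1.06. In the same order, the enterocyte list was at 2.67, 3.02 and 2.19 with a mean of 3.14, the villus tip list at 3.18, 3.53 and 2.70 with a mean of 3.20, and the epithelial list at 0.49, 0.84 and 0.0067 with a mean of 0.58. The stem cell list was at -4.28 with total counts, -4.76 with epithelial genes and -4.24 as a mean.

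With the longest protein-coding transcript as the length, the control levels were 43.3 TPM for Btnl1, 22.0 for Btnl2 and 33.1 for Btnl6, and the DSS levels were 147, 101, 76.4 and 107 TPM for Btnl1, Btnl2, Btnl4 and Btnl6. The scaling shifts follow from the factors themselves, and the cause of the other differences was not tested. Depth does not limit the members, whose lowest count was 1742, but genes under 10 counts were not compared.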
